A study of Mus musculus with 27 samples.

Results

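Apolipoproteins are the protein components of lipoproteins, and 10 of their genes were followed here across a study of acetaminophen in a mouse hepatocyte line: Apoa1, Apoa2, Apoa4, Apoa5, Apob, Apoc3, Apoe, Apoh, Apom and Apon. A gene was a member when the array carried a probe set annotated to its symbol and to no other, with the brightest probe set kept where there were several, and each of the 10 genes had exactly 1. They are 10 of 19938 genes measured in this way. The cells were TAMH cells, a line established from hepatocytes of mice transgenic for transforming growth factor alpha, so that all groups share this background and stand for a single line. Cultures were dosed with 2 mM acetaminophen (APAP), with 2 mM of its regioisomer AMAP or with control medium, and were collected after 2, 6 or 24 h. In APAP the ring hydroxyl is para to the amide nitrogen, and in AMAP it is meta. All cultures were kept without serum, in medium that held dexamethasone, nicotinamide, insulin, transferrin and selenium. Each of the 9 groups (APAP, AMAP and control at 2, 6 and 24 h) holds 3 arrays, which carry the numbers 30, 31 and 32. The labels name passages 25 to 35, so the numbers may be passages, but the labels do not state that the arrays of a group came from separate cultures. The p-values therefore measure the spread between these samples, which may be technical.

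The liver secretes triglyceride on very low density lipoproteins, each built around a molecule of apolipoprotein B, and it forms high density lipoproteins around apolipoprotein A-I. Smaller exchangeable apolipoproteins sit on both kinds of particle and direct what happens to them in plasma: apolipoprotein C-III slows lipolysis, apolipoprotein A-V favours it, and apolipoprotein E binds the receptors that clear remnants. In mouse tissues most of these genes are read in hepatocytes, and high apolipoprotein expression is a usual mark of a differentiated hepatocyte. APAP is oxidised in hepatocytes to a reactive quinone imine, and AMAP has long been used beside it as an isomer of lower liver toxicity in mice.

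The promoters of 3 members are shown. Apon was the only member to pass an adjusted p under 0.05 between treatments. Apoa1 and Apoh were the pair whose array-to-array variation was most alike. Each run is the RefSeq promoter window on mouse build GRCm38.p6, 250 bases before to 50 bases after the transcription start, written 5′ to 3′ on the strand of the gene, with any AGGTCA (the core letters read by many nuclear receptors, on either strand) in capitals. The windows are chr10:128253881-128254180 for Apon, chr9:46228380-46228679 for Apoa1 and chr11:108395047-108395346 for Apoh, all on the plus strand.
Apon: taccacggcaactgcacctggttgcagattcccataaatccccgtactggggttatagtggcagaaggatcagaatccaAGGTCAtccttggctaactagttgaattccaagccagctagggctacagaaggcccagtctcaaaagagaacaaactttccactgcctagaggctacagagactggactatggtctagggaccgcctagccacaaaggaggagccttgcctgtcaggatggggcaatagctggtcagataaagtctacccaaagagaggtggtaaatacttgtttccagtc
Apoa1: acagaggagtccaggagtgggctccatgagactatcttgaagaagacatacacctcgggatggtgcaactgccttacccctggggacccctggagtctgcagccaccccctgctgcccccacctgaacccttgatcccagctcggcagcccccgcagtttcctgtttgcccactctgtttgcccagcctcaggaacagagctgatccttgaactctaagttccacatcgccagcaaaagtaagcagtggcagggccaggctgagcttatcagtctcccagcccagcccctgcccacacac
Apoh: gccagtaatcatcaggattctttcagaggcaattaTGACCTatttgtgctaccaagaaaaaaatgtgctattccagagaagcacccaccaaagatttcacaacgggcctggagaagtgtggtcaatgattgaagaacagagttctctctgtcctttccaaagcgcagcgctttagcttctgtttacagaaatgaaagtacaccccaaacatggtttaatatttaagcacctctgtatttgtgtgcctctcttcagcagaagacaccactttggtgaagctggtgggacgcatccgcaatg

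The Apon window holds AGGTCA 171 bases before the start, and the Apoh window holds it on the opposite strand, where it reads TGACCT, 215 bases before the start. The Apoa1 window has no match to any of the 5 motifs searched. RefSeq windows were found for 9 of the 10 members, 13 windows in all, as several genes have more than 1 start. AGGTCA was present in 3 of these 9 genes (Apoa2, Apoh and Apon) and in 16.3% of all 32851 windows of this length. Here and below a gene counts when any of its windows holds the motif, whereas the shares are per single window. The counts and the shares are therefore not in the same unit. The TATA box letters TATAAA were present in 4 genes (Apoa2, Apoa5, Apob and Apoe) and in 13.6% of windows. CCAAT was found in Apoa2 alone and in 37.4% of windows, the C/EBP core TTGCNNAA in Apoa2 and Apob and in 10.8%, and the HNF1 core GTTAAT in Apoe alone and in 7.1%. All motifs were searched on both strands, and AGGTCA shares no position with another motif in the windows of Apon and Apoh. These matches describe letters and not binding.

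The array values are log2 signals, and the array medians over all probe sets lay between 6.92 and 7.07. Replicate arrays correlated at 0.992 to 0.997 across genes, which are not independent replicates, and no 2 arrays held the same values. The lowest array weights in the 27-array model were 0.421 for AMAP at 6 h, array 32, and 0.515 for APAP at 24 h, array 32. Arrays have no read depth, and with 3 arrays a group differences between treatments had a median standard error of 0.10 on the log2 scale. Of 14 measured genes of the hepatocyte list 10 were above the median gene, and the list's median was at percentile 94.6 of all genes. In the 9 control arrays Alb (albumin) averaged 13.68 ± 0.09 and Ttr (transthyretin) 12.43 ± 0.24, at percentiles 100.0 and 99.3, and Hnf4a, the hepatocyte nuclear receptor, averaged 10.64 ± 0.25 (SD, n = 9). Above the median gene were also 2 of 9 macrophage and leukocyte markers (list median at percentile 23.4), 1 of 7 enterocyte markers (34.0), 0 of 6 endothelial markers (25.4) and 5 of 9 fibroblast and stellate cell markers (53.3). In these lists the leukocyte gene Ptprc was at percentile 23.4, the endothelial gene Pecam1 at 25.3 and Fabp2 of enterocytes at 7.4, whereas the mesenchymal gene Vim was at 99.8, Vil1 of brush borders at 84.2, and Cd14 averaged 11.03 in control cultures at 6 h.

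The 10 members fell into a bright and a middling set by the rank of their signal among all genes. Apoe, the ligand for remnant receptors, had a mean log2 signal of 13.05 over the 27 arrays (percentile 99.8), Apoa1 12.39 (percentile 99.3), Apob 11.79 (percentile 98.3) and Apoh, a phospholipid-binding plasma protein, 11.01 (percentile 95.7). The other 6 lay near the middle of the array. Apoc3 had a mean of 8.49 (percentile 66.0), Apom, the carrier of sphingosine 1-phosphate on high density lipoprotein, 8.45 (percentile 65.4) and Apoa2, a structural protein of that particle, 8.20 (percentile 61.8). Apon followed with 7.58 (percentile 53.6), Apoa4, which is made mainly in the intestine, with 7.35 (percentile 50.7) and Apoa5 with 7.03 (percentile 46.1). Signals of different probe sets are not amounts of RNA on a common scale, so these ranks say only where each probe set lay on the array.

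**Figure D1:**
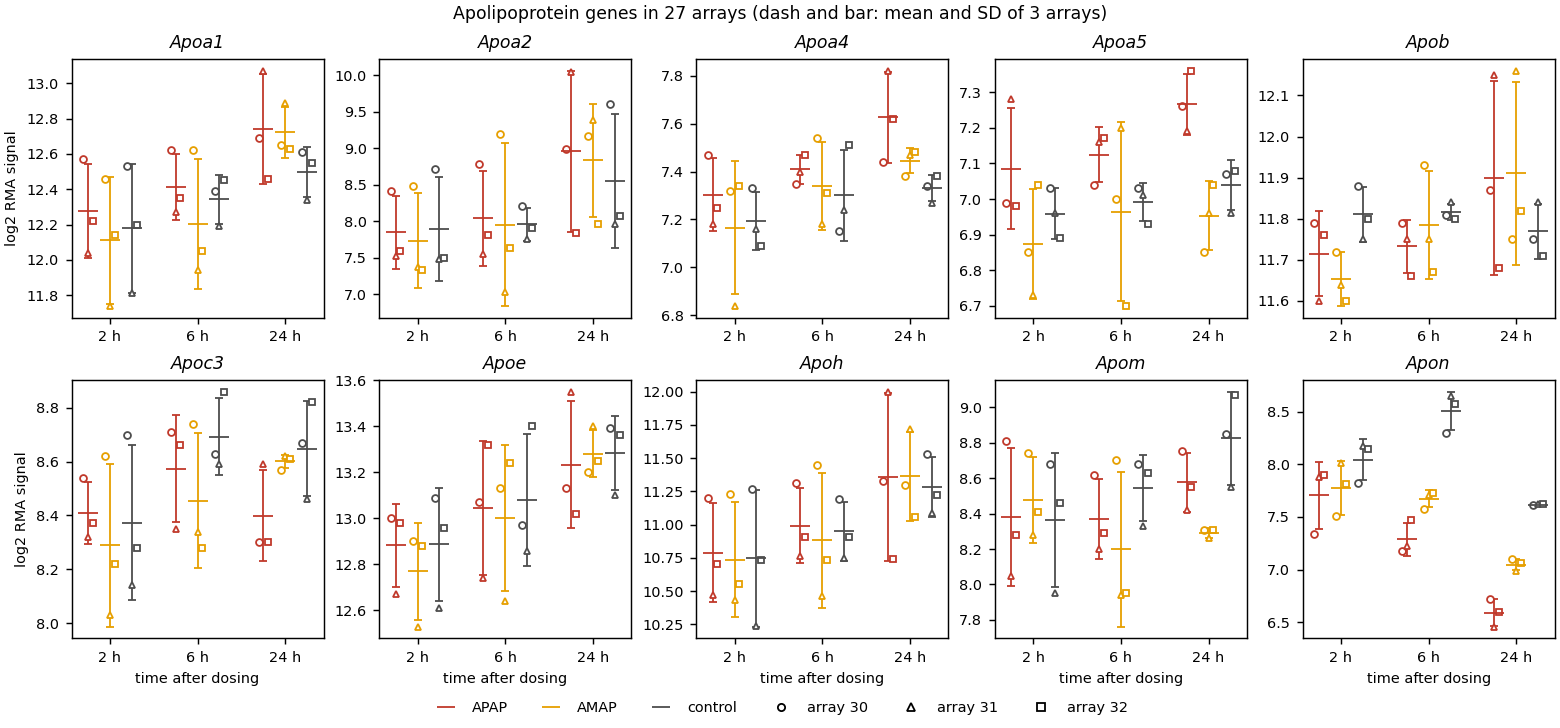
Log2 signal of each apolipoprotein gene (vertical axes, each panel with its own scale) in APAP, AMAP and control cultures at 2, 6 and 24 h. Symbols are single arrays, and the dash and bar are the mean and SD of 3 arrays. Apon is lowest with APAP at 24 h, where its 3 arrays read 6.72, 6.46 and 6.60, and highest in control cultures at 6 h, where they read 8.30, 8.65 and 8.57.

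The comparison of each compound with control medium asks which genes respond to it. Apon, the gene of apolipoprotein N, was lower with both compounds at 6 and 24 h. At 6 h it fell 2.33-fold with APAP and 1.78-fold with AMAP, and at 24 h it fell 2.03-fold with APAP and 1.48-fold with AMAP. The direct difference between the compounds passed at 24 h, where the call was lost without 19 of 27 single arrays, and did not pass at 6 h (adjusted p 0.343). No other member passed the test in any of the 9 comparisons between treatments.

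At 2 h Apon read 7.34, 7.88 and 7.90 with APAP, 7.51, 8.01 and 7.81 with AMAP and 7.82, 8.17 and 8.14 in control cultures, in the order of arrays 30, 31 and 32. The 3 groups overlapped, although in each number the control array was the highest of the 3. The difference was -0.34 (95% interval -0.61 to -0.06, adjusted p 0.384) for APAP minus control and -0.27 (-0.54 to 0.01, adjusted p 0.737) for AMAP minus control. Neither passed the threshold of an adjusted p under 0.05. Arrays of the same number varied together across APAP and control at 2 h, and with the number as a block within each time, an alternative chosen after the data were seen, the APAP difference passed at an adjusted p of 0.0213.

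At 6 h Apon read 7.18, 7.22 and 7.47 with APAP, 7.58, 7.71 and 7.73 with AMAP and 8.30, 8.65 and 8.57 in control cultures. The 3 groups did not overlap, with APAP lowest, AMAP between and control highest. APAP minus control was -1.22 ± 0.13 (SE; 95% interval -1.49 to -0.94, adjusted p 4.57e-06), the 8th smallest p of all genes in that comparison. AMAP minus control was -0.83 ± 0.13 (-1.11 to -0.56, adjusted p 0.00472), the 6th smallest p. Without all arrays of number 31, or of number 32, the AMAP difference no longer passed, with an adjusted p of up to 0.18, and it passed without any single array.

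At 24 h the readings were 6.72, 6.46 and 6.60 with APAP, 7.10, 6.99 and 7.06 with AMAP and 7.61, 7.62 and 7.62 in control cultures. The 3 groups were again apart in the same order. APAP minus control was -1.02 ± 0.13 (-1.30 to -0.75, adjusted p 1.69e-05) and AMAP minus control was -0.57 ± 0.13 (-0.84 to -0.29, adjusted p 0.04). The AMAP call at 24 h was fragile. It was lost without any 1 of the 3 AMAP or 3 control arrays of that time, with an adjusted p of up to 0.175. It was also lost without all arrays of any 1 number (adjusted p 0.0708 to 0.394) and when every probe set was tested (adjusted p 0.106). The APAP differences at 6 and 24 h passed under all 41 alternatives, between -1.32 and -1.11 at 6 h and between -1.09 and -0.96 at 24 h.

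Paired by number, Apon was lower with the compound in 18 of 18 pairs of a treated and a control array. These pairs share their control arrays between the compounds, so they are not 18 independent observations. At both later times the treated and control arrays did not overlap, so any pairing gives the same result there. The numbers did not pair the arrays with control for either compound at 24 h, nor for AMAP at the earliest time. The count therefore adds no evidence to the differences at the later times, and no share of all genes is given beside it. The mean of Apon with APAP at 24 h, 6.59 ± 0.13 (SD, n = 3), lay at percentile 36.9 of all genes, and with AMAP at 24 h, 7.05 ± 0.05 (SD, n = 3), at percentile 46.5, and the part of low signal in the size of the 24 h differences was not tested. In a bulk culture, fewer cells that express a gene and less RNA per cell cannot be told apart.

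Beside these counts stand those over all 19938 genes. For APAP minus control 0.682% of genes passed at 2 h, 2.5% at 6 h and 9.33% at 24 h, and members called were 0, 1 and 1 of 10. For AMAP minus control 0.181%, 0.456% and 0.727% passed at 2, 6 and 24 h, and members called were 0, 1 and 1 of 10. In the direction of the Apon change, lower with the compound, the background was 1.44% at 6 h and 5.97% at 24 h for APAP, and 0.296% at 6 h and 0.416% at 24 h for AMAP. At 2 h, where limma called no member, 1846 genes for APAP and 1356 for AMAP had an unadjusted p under 0.05. For APAP at 24 h, 1 of 10 members is close to the share of all genes called. The median difference of the 10 members was 0.03, 0.00 and 0.10 for APAP at 2, 6 and 24 h, against 0.01, 0.00 and 0.02 over all genes, and -0.08, -0.07 and 0.04 for AMAP, against -0.02, 0.01 and -0.01.

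**Figure D2:**
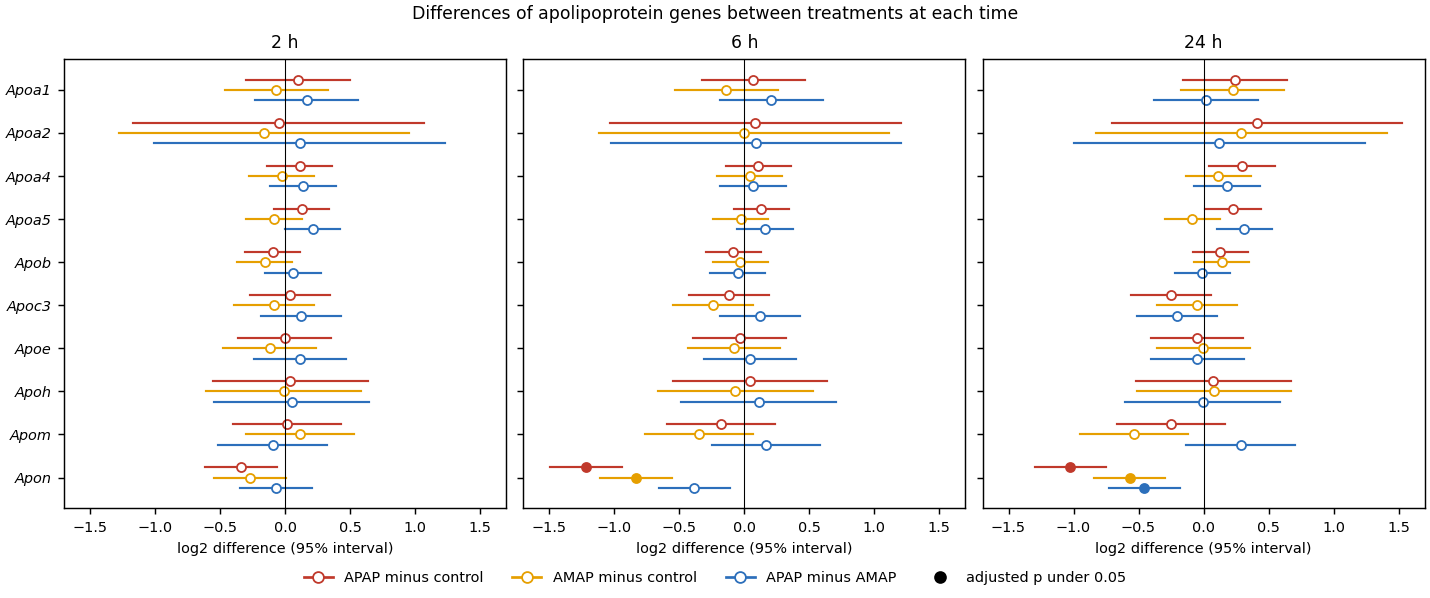
Log2 differences with 95% intervals (horizontal axis) of the 10 members at 2, 6 and 24 h, for APAP minus control, AMAP minus control and APAP minus AMAP. Filled points passed an adjusted p under 0.05, which only Apon did, and the intervals of Apoa2 are the widest.

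APAP and AMAP differ in the position of the ring hydroxyl, and were given at the same dose and times, so their difference was tested directly. At 24 h Apon was lower with APAP than with AMAP, with a log2 difference of -0.46 ± 0.13 (SE; 95% interval -0.73 to -0.18, adjusted p 0.0482), and the arrays of the compounds did not overlap. This call was close to the threshold. Without all arrays of number 31, or of number 32, it no longer passed, with an adjusted p of up to 0.263. It was lost without 19 of 27 single arrays, the 9 arrays of 24 h among them, with adjusted p from 0.0207 to 0.16 over all 27, as well as under array weights (0.061) and with every probe set tested (0.0979).  In that comparison 4.65% of all genes passed, 2.78% lower with APAP, and 1 of 10 members.

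At 6 h Apon was -0.38 (-0.66 to -0.11, adjusted p 0.343) in APAP minus AMAP, again without overlap of the arrays, and no member passed, against 0.707% of genes, with 1477 genes at an unadjusted limma p under 0.05. The block within each time, chosen after the data were seen, brought this difference to an adjusted p of 0.00841. At 2 h the difference was -0.07 (-0.34 to 0.21, adjusted p 0.932), no member passed, 0.261% of genes did, and 1860 had an unadjusted p under 0.05. An interval from -0.34 to 0.21 leaves room for either compound to be lower at 2 h.

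Whether the effect of a compound on Apon changed with time was tested with interaction terms. The APAP effect at 6 h minus that at 2 h was -0.88 on the log2 scale, with an adjusted p of 0.386 over all genes, and at 24 h minus 2 h it was -0.69 (adjusted p 0.124). The same AMAP terms were -0.56 (-0.95 to -0.18, adjusted p 1.0) and -0.30 (-0.69 to 0.09, adjusted p 0.985). The effect at 24 h minus that at 6 h was 0.19 for APAP (-0.19 to 0.58, adjusted p 0.905) and 0.27 for AMAP (-0.12 to 0.66, adjusted p 0.999). None of these passed, and limma called 0.0%, 0.356% and 0.01% of all genes for the APAP effect at 6 against 2, 24 against 2 and 24 against 6 h, and 0.00502%, 0.0% and 0.0% for the AMAP effect. Unadjusted p under 0.05 were held by 680, 1886 and 1423 genes for APAP and by 823, 937 and 691 for AMAP. Both kinds of block changed this. With the number as a fixed block the APAP effect at 24 against 2 h passed (0.042), although the numbers did not pair APAP and control arrays at 24 h. With the block within each time the APAP effect passed at 6 against 2 h (0.00225) and, with the same limit, at 24 against 2 h (0.00142). Without APAP array 30 of 2 h the 2 APAP differences passed as well, at 0.0409 and 0.0304.

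Apon also moved in the control cultures. Its mean there was 8.04 ± 0.20 at 2 h, 8.51 ± 0.18 at 6 h and 7.62 ± 0.0024 at 24 h (SD, n = 3 each). The fall at 24 h against 6 h was -0.89 (-1.16 to -0.61, adjusted p 0.0054), and only 3 genes were called in that comparison (0.015% of genes), all 3 of them lower at 24 h. This call was lost without control array 30 of 24 h or control arrays 31 or 32 of 6 h, with adjusted p of up to 0.12. It was also lost without all arrays of number 31, or of number 32 (up to 0.275), and with every probe set tested (0.0501). Control at 6 h minus 2 h gave 0.46 (adjusted p 0.134) and 24 h minus 2 h gave -0.43 (adjusted p 0.118), and neither passed. Both passed with the number as a block (0.0452 and 0.0484), but the numbers did not pair the arrays of these 2 comparisons. The control arrays of 6 h lay above all those of 2 h for Apon alone (1 of 10 members, 8.31% of genes), and those of 24 h lay below all those of 6 h for Apon alone (1 of 10, 8.55% of genes) and above them for 0 members (5.58%). Between 24 h and 2 h Apoe was apart and higher (1 of 10, 10.2% of genes) and Apon apart and lower (1 of 10, 13.9% of genes). The fall with the compounds was therefore measured against a control level that itself shifted between times. In decreasing order the 9 group means of Apon were control at 6 h, control at 2 h, AMAP at 2 h, APAP at 2 h, AMAP at 6 h, control at 24 h, APAP at 6 h, AMAP at 24 h and APAP at 24 h. Of the 8 neighbouring pairs in this order 4 had no overlap between their arrays: control at 6 h and control at 2 h, control at 24 h and APAP at 6 h, APAP at 6 h and AMAP at 24 h, and AMAP at 24 h and APAP at 24 h.

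The 3 genes outside the members whose signal over the 27 arrays was most like that of Apon, among 10831 genes with a mean log2 signal of at least 7, were Fmo1 (r = 0.92), Nmi (r = 0.91) and Pacsin2 (r = 0.91). The 27 points share their groups, and on deviations from the group means the correlations were 0.73, 0.70 and 0.35. Fmo1, a flavin-containing monooxygenase, averaged 6.36 ± 0.11 with APAP, 6.84 ± 0.08 with AMAP and 7.49 ± 0.24 in control cultures at 24 h (SD, n = 3 each). Its APAP difference at 24 h was -1.13 (adjusted p 1.65e-04), while AMAP minus control was -0.65 and did not pass (adjusted p 0.0805). Nmi, an interactor of Myc and STAT proteins, fell with APAP at 24 h, with a difference of -0.57 (adjusted p 1.65e-04). Pacsin2, a membrane-bending protein of endocytosis, fell with APAP, with differences of -0.32 at 6 h (adjusted p 0.0341) and -0.40 at 24 h (adjusted p 0.00282). None of the 3 passed in AMAP minus control at any time, where the adjusted p were 0.0805 or higher. As these genes were picked for their likeness to Apon over the same arrays, their differences describe the likeness and add no test of it.

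**Figure D3:**
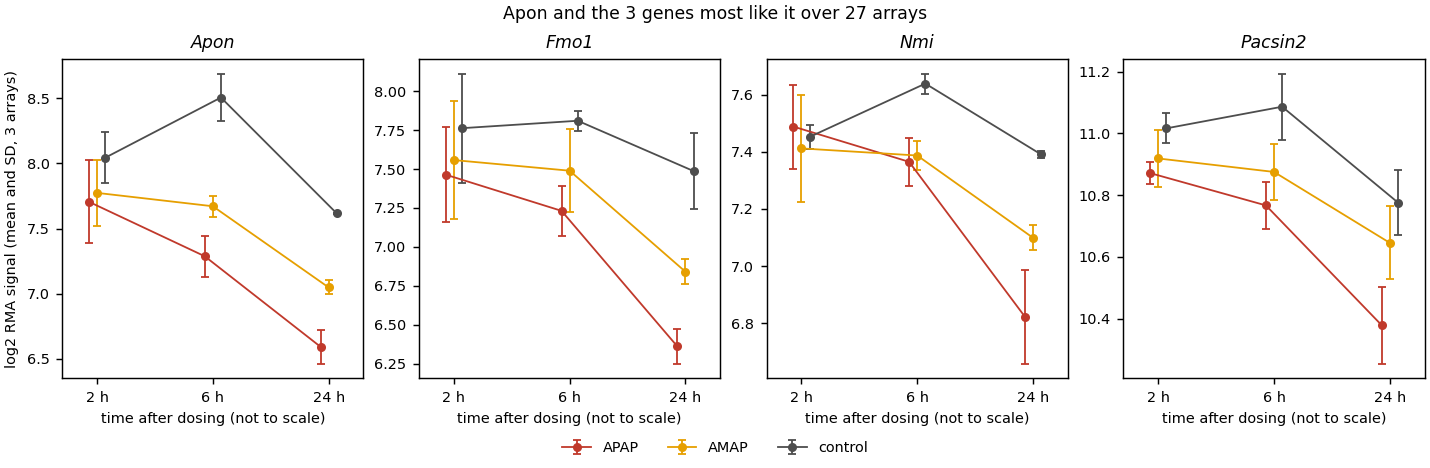
Mean log2 signal with SD of 3 arrays (vertical axes, separate scales) of Apon, Fmo1, Nmi and Pacsin2 with APAP, AMAP and control medium at 2, 6 and 24 h (horizontal axis, not to scale). In each panel the 24 h means run from APAP, the lowest, through AMAP to control, and for Apon they are 6.59, 7.05 and 7.62.

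The gene next to Apon on chromosome 10 is Apof, which encodes a lipid transfer inhibitor protein. Apof followed Apon weakly, with r = 0.38 over the 27 arrays and 0.12 on deviations, and was not called. On chromosome 7 the neighbours Apoe and Apoc1 were closely alike (r = 0.96 over arrays and 0.95 on deviations), and Apoc1 was the gene most like Apoe of all genes searched. Apoa1, Apoc3, Apoa4 and Apoa5 are consecutive coding genes on chromosome 9. Within that cluster Apoa1 and Apoc3 varied together over deviations at r = 0.88 and Apoc3 and Apoa4 at r = 0.73, whereas Apoa5 stood apart with r between -0.11 and 0.06.

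Apob, which gives very low density lipoprotein its backbone, held a narrow range. Its 9 group means lay between 11.65 and 11.91, its largest difference between treatments was -0.16 (AMAP minus control at 2 h, adjusted p 0.875), and all its 95% intervals in the 9 treatment comparisons lay between -0.37 and 0.35, a change of at most 1.29-fold. Apoe had differences between -0.12 and 0.11 and intervals between -0.47 and 0.47, a bound of 1.39-fold. Apoc3, the inhibitor of lipolysis, ranged from -0.25 to 0.12 with intervals from -0.56 to 0.43. Apoa1, the main protein of high density lipoprotein, differed by -0.14 to 0.24 (intervals from -0.54 to 0.64), and Apoh, which also circulates free in plasma, differed by -0.07 to 0.11 (intervals from -0.66 to 0.71).

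Of 8 members other than Apon and Apoa2 every interval in the 9 comparisons between treatments lay between -0.95 and 0.71, that is within a 2-fold change. Apoa2 could not be bounded so closely: its intervals ran from -1.28 to 1.53, so that changes of up to 2.89-fold lay within them.

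After Apon, the smallest p among members were those of Apoa5, Apoa4 and Apom at 24 h, and none passed. Apoa5, the activator of plasma lipolysis, read 7.26, 7.19 and 7.36 with APAP, 6.85, 6.96 and 7.04 with AMAP and 7.07, 6.96 and 7.08 in control cultures. All 3 APAP arrays were above the arrays of both other groups. APAP minus AMAP was 0.31 (0.10 to 0.53, adjusted p 0.0852) and APAP minus control was 0.23 (adjusted p 0.187). The first passed under array weights (0.0353) and without AMAP array 32 of 6 h (0.0408).

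Apoa4 read 7.44, 7.82 and 7.62 with APAP, 7.38, 7.47 and 7.48 with AMAP and 7.34, 7.27 and 7.38 in control cultures at 24 h. The APAP arrays and the AMAP arrays each lay above the control arrays or level with the highest of them. APAP minus control was 0.30 (0.04 to 0.55, adjusted p 0.14).

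Apom read 8.75, 8.42 and 8.55 with APAP, 8.31, 8.26 and 8.31 with AMAP and 8.85, 8.55 and 9.07 in control cultures at 24 h. The AMAP arrays lay below those of both other groups. AMAP minus control was -0.53 (-0.95 to -0.12, adjusted p 0.269), and it passed with the number as a block (0.0332), although the numbers did not pair the arrays of that comparison.

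At 2 h the arrays of AMAP and control did not overlap for 0 members with AMAP higher and for 1 with AMAP lower (Apob), against 4.51% and 6.95% of all genes. At that time 0 members were apart in either direction for APAP and control, against 9.46% of genes with APAP higher and 8.12% with APAP lower, and 0 for APAP and AMAP, against 9.7% and 4.7%. At 6 h the arrays of APAP and control did not overlap for 1 member with APAP higher (Apoa5) and for 2 with APAP lower (Apob and Apon), where 7.71% and 8.58% of all genes did so. Those of AMAP and control did not overlap for 0 members with AMAP higher and for 1 with AMAP lower (Apon), against 6.51% and 5.87% of genes, and those of APAP and AMAP for 0 with APAP higher and for 1 with APAP lower (Apon), against 5.09% and 5.34%. At 24 h the arrays of APAP and control did not overlap for 2 members with APAP higher (Apoa4 and Apoa5) and for 1 with APAP lower (Apon), where 13.3% and 13.7% of all genes did so. For AMAP and control they were 2 higher (Apoa1 and Apoa4) and 2 lower (Apom and Apon), against 8.71% and 10.7% of genes. For APAP and AMAP they were 2 higher (Apoa5 and Apom) and 1 lower (Apon), against 12.3% and 10.1%.

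Between control cultures of 24 h and 2 h the median difference of the 10 members was 0.30, beside 0.01 over all genes, with 8 of the 10 above 0, but no member passed. Limma called no member in this comparison, where 1.14% of genes passed and 2797 had an unadjusted p under 0.05. Apoe read 13.39, 13.10 and 13.36 at 24 h against 13.09, 12.61 and 12.96 at 2 h, a difference of 0.39 (0.04 to 0.75, adjusted p 0.29). Apom gave 0.46 (0.05 to 0.88, adjusted p 0.29) and Apoh 0.53 (-0.06 to 1.13, adjusted p 0.425). At 6 h against 2 h no member passed either, while 0.707% of genes did and 1861 had an unadjusted p under 0.05, and the median of the members was 0.17 beside 0.01 over all genes.

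The spread between arrays of a group was large for several members and was shared between them. The pooled SD within groups of Apoa2 was 0.78, at percentile 100.0 of all genes, that of Apoh 0.41 (percentile 99.7), of Apom 0.28 (percentile 98.5), of Apoa1 0.27 (percentile 98.1) and of Apoe 0.24 (percentile 96.7). Apob (0.13, percentile 58.3) and Apoa5 (0.13, percentile 58.7) were near the middle. Set against this, the SD of the 9 group means was 3.11 times the SD within groups for Apon (percentile 99.9), and 0.58 to 0.90 times for the other members.

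Apoa2 shows the pattern. At 2 h it read 8.42, 7.52 and 7.60 with APAP, 8.49, 7.38 and 7.34 with AMAP and 8.72, 7.48 and 7.50 in control cultures, in the order of arrays 30, 31 and 32. At 6 h it read 8.78, 7.55 and 7.81 with APAP, 9.19, 7.04 and 7.64 with AMAP and 8.21, 7.76 and 7.91 in control cultures. Array 30 was the highest of its group in all 6 groups at these times, whatever the treatment. At 24 h the readings were 8.99, 10.04 and 7.84 with APAP, 9.17, 9.39 and 7.96 with AMAP and 9.61, 7.97 and 8.07 in control cultures, so array 31 was the highest with either compound and array 30 in control cultures.

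Apoh and Apom also had array 30 highest in 6 of 6 groups at 2 and 6 h, and Apoa1, Apob and Apoc3 in 5 of 6, while Apon had it highest in 0 of 6. At 2 h array 30 lay above its group mean by 0.72 for Apoa2, by 0.48 for Apoh and by 0.33 for Apoa1 on average over the 3 treatments, whereas Apon deviated by -0.29. Arrays of the same number are thus alike across treatments at 2 and 6 h in these genes, and what the numbers stand for is not given by the labels.

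**Figure D4:**
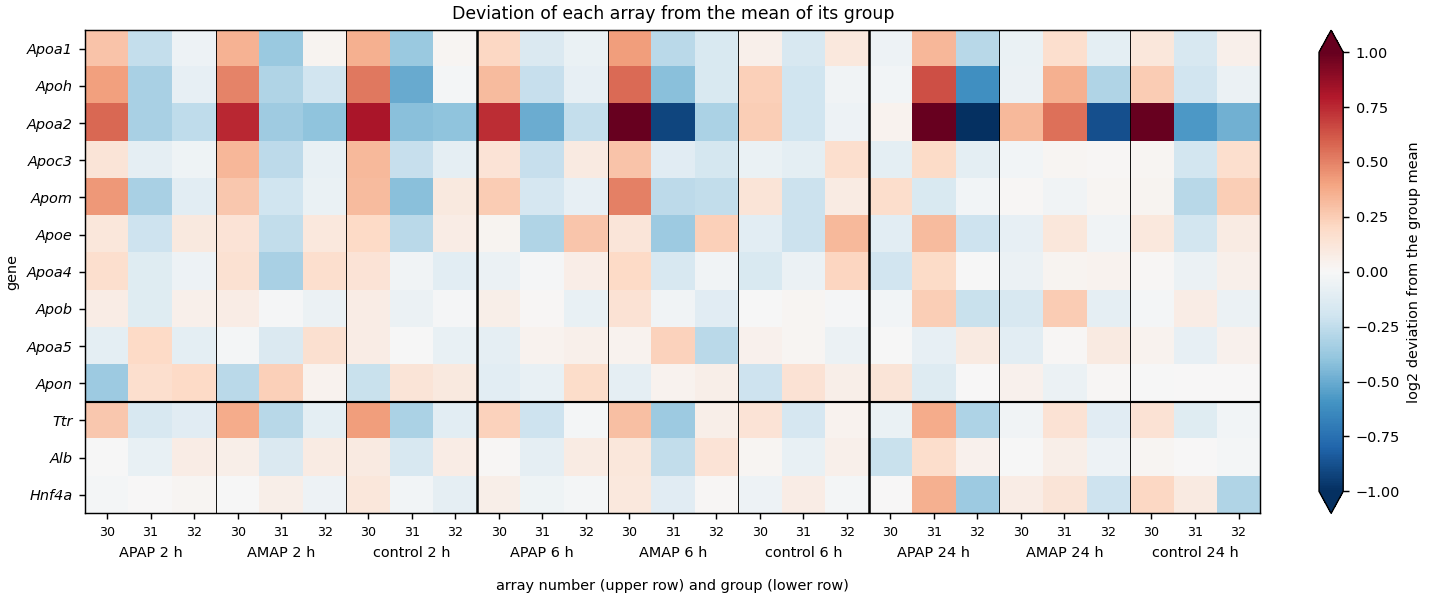
Deviation of each array from the mean of its group, in log2 units (colour), for the 10 members and for Ttr, Alb and Hnf4a (rows) in the 27 arrays (columns, by group and number). At 2 h, array 30 is above its group mean for Apoa1, Apoh and Apoa2 and below it for Apon in all 3 treatments.

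Over the 27 deviations the 45 pairs of members correlated at -0.73 to 0.95, with a median of 0.44 and 14 values below 0. Each of these 14 pairs held Apon or Apoa5, and the 28 pairs among the other 8 members lay between 0.26 (Apob and Apom) and 0.95. The closest were Apoa1 and Apoh (r = 0.95). Apon ran the other way, with r from -0.73 (Apoa1) to 0.01 (Apoa5) and 8 of 9 values below 0, and Apoa5 had r from -0.34 to 0.06. The hepatocyte gene Ttr was alike to several members, at r = 0.96 with Apoh, 0.94 with Apoa1 and 0.88 with Apoa2, and against Apon at -0.73. Alb was closest to Apoe (r = 0.80), and Hnf4a to Apoa2 (r = 0.73). These are descriptions over 27 points that share groups and numbers, and Apon and Apoa5 were set apart from the other 8 after the correlations were seen. Ttr, Alb and Hnf4a were called in none of the 9 treatment comparisons. In AMAP minus control at 24 h Ttr gave 0.45 (adjusted p 0.354), and in APAP minus control at 6 h Hnf4a gave -0.35 (adjusted p 0.204). The part of Ttr, Alb or Hnf4a in the spread of the members was not tested.

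**Figure D5:**
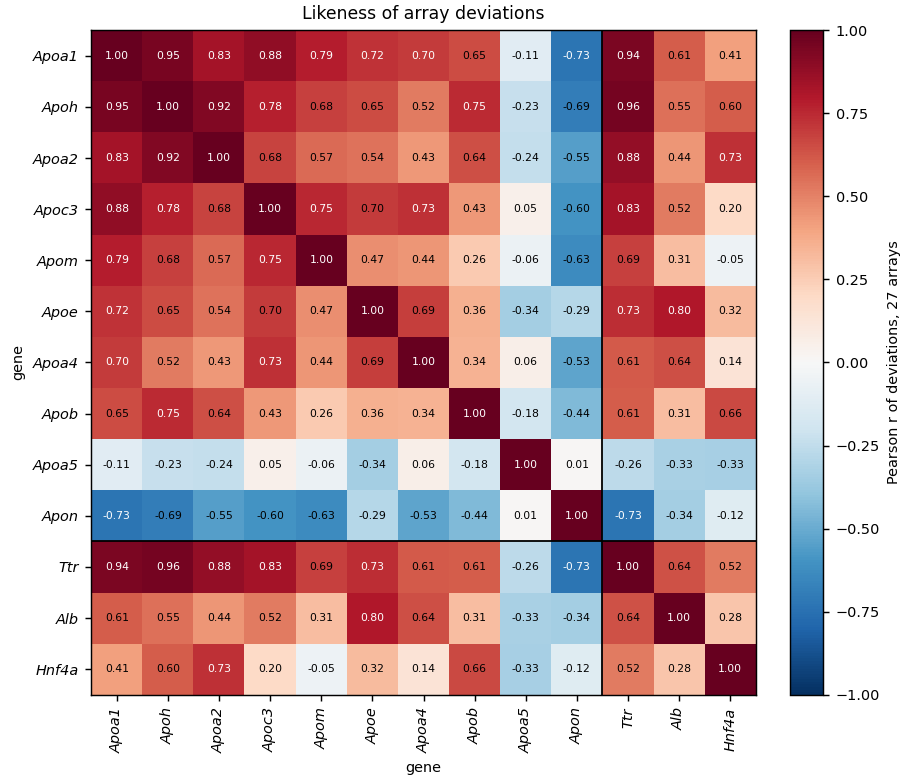
Pearson correlation (colour and printed value) between the deviations of genes from their group means over 27 arrays, for the 10 members and for Ttr, Alb and Hnf4a. The values among the 8 members other than Apon and Apoa5 are all positive, at 0.26 to 0.95, Ttr is at 0.94 to Apoa1, and Apon is at -0.73 to Apoa1 and to Ttr.

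The most alike genes outside the members named other secreted liver proteins for several of them. Apoa1 was most like Ttr (r = 0.94), Slc22a18 (0.93) and Fabp1 (0.92), the fatty acid binding protein of liver. Apoh was most like Vtn (0.95), the gene of vitronectin, Cdhr5 (0.95) and the coagulation factor gene F10 (0.94), and Apoa2 most like F10 (0.93), Cdhr5 (0.92) and the fatty acyl-CoA synthetase gene Slc27a2 (0.91). After Apoc1, Apoe was most like F2 (0.95), the prothrombin gene, and Hsd17b13 (0.92), a lipid droplet protein. Apob was most like Cps1 (0.85), the first enzyme of the urea cycle, Nbeal1 (0.84) and Kdm5b (0.84). Apoc3 was most like Slc6a13 (0.88), Fads3 (0.86) and Pla2g12b (0.86), a gene needed for lipoprotein secretion in mice. Likeness was lower for Apoa4 (Gnptg, 0.83, Cd81, 0.83, and Tmprss6, 0.80), Apoa5 (Hoxb1, 0.83, Rasa4, 0.79, and C230062I16Rik, 0.77) and Apom (Ptprd, 0.78, Sult1a1, 0.78, and Tspan8, 0.78). All are over the 27 arrays.

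Other genes of the lipoprotein pathway were taken from 6 lists. Their counts stand beside shares of all genes called of 2.5% for APAP at 6 h, 9.33% for APAP at 24 h, 0.727% for AMAP at 24 h and 4.65% for APAP minus AMAP at 24 h. Among 11 of 14 other apolipoprotein genes measured, 1 rose with APAP at 24 h (9.09% of the list): Saa4, a serum amyloid A of high density lipoprotein, by 0.46 (adjusted p 0.0224; means 5.57 with APAP and 5.11 in control cultures, both dim). It was 0.46 above AMAP as well (adjusted p 0.0378). Of 17 genes of assembly and secretion, Cideb, which acts in the lipidation of very low density lipoprotein, fell with APAP, with differences of -0.52 at 6 h (adjusted p 0.0277) and -0.70 at 24 h (adjusted p 0.0012), and APAP minus AMAP at 24 h was -0.59 (adjusted p 0.00853). That is 1 of 17 genes (5.88%) in each of these comparisons. The other 16 genes were not called, and the median of the list at 24 h was -0.01 for APAP minus control, beside 0.02 over all genes.

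Among 15 of 18 receptor and clearance genes measured, 2 were called with APAP at 24 h (13.3%, against 9.33% of all genes). Lrpap1, a chaperone of endocytic receptors, rose with APAP by 0.32 at 6 h (adjusted p 0.0155) and 0.50 at 24 h (adjusted p 9.15e-05), and with AMAP by 0.44 at 24 h (adjusted p 0.00292). Lrp8, an apolipoprotein E receptor, fell with APAP at 24 h, with differences of -0.52 from control (adjusted p 0.00162) and -0.54 from AMAP (adjusted p 0.00153). Of 14 of 16 genes of high density lipoprotein formation and lipid transfer, 2 rose with APAP at 24 h (14.3%, against 9.33% of all genes): Npc1, which exports cholesterol from lysosomes, by 0.47 (adjusted p 0.0012) and the transporter gene Abcg4 by 0.25 (adjusted p 0.0441). Of 9 of 11 lipases and their regulators 1 was called with APAP at 24 h (11.1%, against the same 9.33%): Angptl4, an inhibitor of lipoprotein lipase, rose by 0.63 (adjusted p 0.00772) and stood 0.60 above AMAP (adjusted p 0.0179). The shares of these lists were close to that of all genes in the comparison.

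Of 29 of 33 transcription factors of apolipoprotein genes measured, 1 rose and 6 fell with APAP at 24 h (24.1% called and 20.7% lower, against 9.33% and 5.97% of all genes). Against AMAP at 24 h, 1 was higher and 5 were lower with APAP (20.7% called and 17.2% lower, against 4.65% and 2.78% of all genes). Nr1d1, the clock repressor Rev-erb alpha, rose by 0.87 (adjusted p 2.81e-05), and its means were 9.08 with APAP and 8.21 in control cultures. The sterol factors Srebf1 and Srebf2 fell, with differences of -0.55 (adjusted p 6.63e-05) and -0.62 (adjusted p 1.35e-04), as did Nr2f2 at -0.39 (adjusted p 0.00648). With APAP at 6 h Srebf2 fell by 0.40 (adjusted p 0.0202) and Nr0b2, the corepressor SHP, had a difference of -0.35 (adjusted p 0.0316). At 2 h only Nr0b2 of the measured factors was called, at -0.45 (adjusted p 0.00938), at dim means of 6.12 with APAP and 6.57 in control cultures. The median of the list was -0.13, -0.20 and -0.14 for APAP at 2, 6 and 24 h, beside 0.01, 0.00 and 0.02 over all genes. No factor was called in AMAP minus control at any time by limma. The list medians there were -0.12, -0.09 and 0.02 at 2, 6 and 24 h, beside -0.02, 0.01 and -0.01 over all genes. At 2 h the list averaged 8.62 to 8.67 with AMAP, 8.59 to 8.67 with APAP and 8.71 to 8.81 in control cultures, lower with both compounds. Between control cultures of 6 h and 2 h the list median was -0.12 as well, beside 0.01 over all genes. The part of these genes in the Apon result was not tested.

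Among markers of other cells, Cd14 fell at 6 h, with differences of -0.40 for APAP (adjusted p 0.0045) and -0.34 for AMAP (adjusted p 0.0487), where Apon was called too, and the other 8 measured macrophage and leukocyte markers were not called there. Cdh17, an enterocyte marker, fell with AMAP at 24 h, with a difference of -0.82 (adjusted p 0.0026). It was 0.67 higher with APAP than with AMAP at that time (adjusted p 0.00343). Vim fell with APAP at 24 h, with a difference of -0.24 (adjusted p 0.0331). These were 14.3%, 14.3% and 11.1% of their measured lists, against 0.727%, 4.65% and 9.33% of all genes. Cd14 was 11.1% of its list, against 2.5% of genes for APAP and 0.456% for AMAP at 6 h. Averaged over the list on each array, the 9 of 10 macrophage and leukocyte markers measured had log2 levels of 6.56 to 6.65 with APAP, 6.57 to 6.68 with AMAP and 6.57 to 6.79 in control cultures at 6 h, which overlap. The 14 of 16 hepatocyte markers measured gave 10.03 to 10.76 with APAP, 10.15 to 10.56 with AMAP and 10.01 to 10.26 in control cultures at 24 h, which overlap too, and none of them was called in any treatment comparison. The 9 fibroblast and stellate cell markers averaged 8.41 to 8.47 with AMAP and 8.56 to 8.62 in control cultures at 24 h, and the 7 enterocyte markers, Cdh17 among them, 6.12 to 6.20 with AMAP and 6.25 to 6.31 in control cultures, so that both lists were lower with AMAP without overlap. With APAP at 24 h the fibroblast and stellate cell markers averaged 8.48 to 8.60, which overlaps control and lies above AMAP, and the macrophage and leukocyte markers averaged 6.66 to 6.77 with APAP and 6.56 to 6.62 with AMAP, also apart. At 6 h the fibroblast and stellate cell markers averaged 8.52 to 8.53 with APAP, 8.55 to 8.59 with AMAP and 8.55 to 8.62 in control cultures, lower with APAP than in both other groups without overlap. In the other treatment comparisons of 6 and 24 h the list levels of these 3 kinds of marker, and those of the 6 endothelial markers in all of them, overlapped. At 2 h the endothelial markers averaged 6.20 to 6.23 with APAP, above AMAP (5.99 to 6.18) and control cultures (6.13 to 6.16). The macrophage and leukocyte markers were higher with APAP (6.64 to 6.71) than in control cultures (6.56 to 6.62). The enterocyte markers were lower with AMAP (6.17 to 6.18) than with APAP (6.20 to 6.34) and in control cultures (6.22 to 6.31). The other comparisons of marker lists at 2 h overlapped. The part of other cells in the Apon result was not tested.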

How the data were processed

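Total RNA was extracted with Trizol and columns and measured on 27 Affymetrix Mouse Gene 1.0 ST arrays, per the labels' protocols. The deposited table holds log2 values made by the authors with RMA in Affymetrix Expression Console 1.1, per the submitters' processing notes. RMA can compress differences of dim probe sets, and the size of this here was not measured. That the base is 2 follows from the span of the numbers, and the genome build is not given in the sources used here. Of 35557 probe sets, 21789 carry a single gene symbol in the array annotation, 1621 several and 12147 none. The brightest probe set of each symbol left 19938 genes.

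A linear model of 9 group means was fitted to the 27 arrays with limma 3.58.1 in R 4.3.3 (18 residual degrees of freedom), with eBayes moderation. Tests were two-sided, with calls at an adjusted p (Benjamini-Hochberg over all genes) under 0.05. In simulated data of APAP minus control at 6 h, 71.6% of 67 changes of 0.5 log2 units and 98.5% of 67 changes of 1.0 were recovered among 19938 genes. There were 17 false calls. The changes were placed in random genes, and the noise was independent between arrays, with no shared effect of the numbers. These shares therefore need not hold for members with a large spread, such as Apoa2.

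Members and gene lists were chosen with earlier results of these data known. Named genes were all members, up to 4 called genes of each list with the smallest p, the 3 genes most like each member, and Alb, Ttr and Hnf4a. List genes with no matched probe set were not analysed here. Numbers were taken to pair arrays where the deviations of same-numbered arrays from their group means correlated above 0.1 across genes for every number, which held in 5 of 9 treatment comparisons, and 25 of 27 arrays were most like an array of the same number outside their group. A comparison below this cut is not shown to lack pairing. In AMAP minus control at 24 h the correlations were 0.09, 0.05 and 0.31 for numbers 30, 31 and 32. Alternatives were a replicate block, array weights, scaling, the variance prior, filters, the choice of probe set, the arrays in the model and leaving out arrays.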

Additional observations from a re-analysis of the deposited data

How the results depend on the processing

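Of 7380 values of single members under 41 alternatives (30 of them leaving out arrays), 7321 kept their side of the threshold. Another 41 no longer passed, 18 newly passed, and 0 called differences reversed. Uncalled differences could change sign, as Apon did in APAP minus AMAP at 2 h, from -0.20 to 0.11. The number of members called for APAP minus control at 6 and 24 h was 1 throughout. With every probe set tested the count was 0 for AMAP minus control and APAP minus AMAP at 24 h and for control at 24 h minus 6 h. With the replicate block it was 2 for AMAP minus control at 24 h (Apom and Apon, a comparison in which the numbers do not pair the arrays) and 1 (Apon) for control at 6 h and at 24 h minus 2 h, and array weights also gave 1 for control at 24 h minus 2 h. The replicate block ended no call. The replicate block within each time, chosen after the data were seen, gave 1 for APAP minus control at 2 h, 2 for AMAP minus control at 24 h, 1 for APAP minus AMAP at 6 h, 1 for control at 6 h minus 2 h and 3 (Apoe, Apom and Apon) for control at 24 h minus 2 h. Between times this block leaves the spread between numbers out of the error, so its calls for control cultures are too liberal. Leaving out a single array or a number gave counts of 0 to 1 for AMAP minus control at 6 h and at 24 h, for APAP minus AMAP at 24 h and for control at 24 h minus 6 h. Where no cause is given, the cause was not tested.

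The number of all genes called, from which each share is taken, moved by over 1.5 times in several settings: for APAP minus control at 24 h it was 1860, against 957 with only the arrays of the comparison, 3043 with array weights and 449 without number 30. The 3 arrays of a group limit the precision, and detection above background was not analysed here.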
